A study of Rattus norvegicus with 8 samples.

Results

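Semaphorins are guidance cues, and plexins and neuropilins are the receptors that read them. The 31 genes described here are the 20 semaphorin, 9 plexin and 2 neuropilin genes whose symbols match these family names, out of 32883 genes in the deposited table. They were chosen by symbol. The cells were primary cultures of oligodendrocyte precursor cells (OPCs), the dividing glia that give rise to myelin-forming cells, from the cerebral cortex of Sprague Dawley rats aged 1 to 2 days. There were 4 libraries from male and 4 from female rats. All 8 cultures had the same history of mixed glia in 20% serum, collection as cells that did not adhere, and 4 to 5 days in Neurobasal medium with 2% B27 and with PDGF and FGF at 10 ng/ml each. The labels name no other treatment or genotype. They do not say whether libraries of a sex came from separate animals or litters, and p-values here cover the spread among these 8 libraries alone, which may be technical.

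Most semaphorins are read by plexins, transmembrane receptors whose cytoplasmic part acts on small GTPases and, through them, on the cytoskeleton. Class 3 semaphorins are secreted, and most of them bind neuropilins, which pass the signal on through A-type plexins. Classes 4, 5 and 6 span the membrane, and class 7 is held by a lipid anchor. In OPCs, Sema3a is known as a repellent that also holds back differentiation, and Sema3f as an attractant.

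Values are the authors' FPKM, fragment numbers scaled by transcript length and by library size, so levels of different genes can be set side by side per length. A gene was tested where its mean over the 8 libraries was at least 1 FPKM, which 11263 genes passed. Of the 31 genes, 27 passed. Each difference is the male mean minus the female mean of log2(FPKM + 1), given ± its standard error. Adding 1 makes changes of low genes look smaller than they are. A gene is said to be called where limma's adjusted p, over all 11263 genes, was under 0.05. How many fragments each library held is unknown. Depth relative to male 1 ran from 0.553 to 1 in male and from 0.303 to 0.981 in female libraries. Of 12 OPC markers listed because of the label, with earlier results of these data known, 11 were in the table and all 11 were tested. Their summed level was 2607 to 2786 FPKM in male and 3085 to 3382 FPKM in female cultures.

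Both class 5 semaphorin genes and the plexin gene Plxnb3 were lower in male than in female cultures. They were the 3 called genes among the 27, and none was called as higher in male cultures. Over all tested genes 6.04% were called, 3.14% as higher in male and 2.89% as higher in female cultures. The median difference of the 27 genes was -0.09, against -0.004 for all tested genes. For 4 of the 27 genes all libraries of a sex lay above all of the other, each time the female ones. Among all tested genes 14% were separated like this, 7.26% with male and 6.77% with female libraries above.

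RefSeq's table of promoters (250 bases before to 50 after the start of a gene, assembly GRCr8) held 23 of the 31 genes. Those without an entry were Plxna1, Plxna4, Sema3a, Sema3b, Sema3f, Sema4d, Sema4g and Sema5a. The windows of the called genes with an entry are shown because these genes differed in the same direction, with every CG dinucleotide in capitals. The Sema5b window lies at chr11:78730540-78730839 on the minus strand and that of Plxnb3 at chrX:156646624-156646923 on the plus strand.
Sema5b: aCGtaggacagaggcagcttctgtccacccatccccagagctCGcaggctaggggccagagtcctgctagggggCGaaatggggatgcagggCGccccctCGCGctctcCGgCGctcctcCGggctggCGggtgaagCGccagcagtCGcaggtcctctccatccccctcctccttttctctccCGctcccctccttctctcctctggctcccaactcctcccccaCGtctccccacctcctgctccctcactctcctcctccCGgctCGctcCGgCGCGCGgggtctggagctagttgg
Plxnb3: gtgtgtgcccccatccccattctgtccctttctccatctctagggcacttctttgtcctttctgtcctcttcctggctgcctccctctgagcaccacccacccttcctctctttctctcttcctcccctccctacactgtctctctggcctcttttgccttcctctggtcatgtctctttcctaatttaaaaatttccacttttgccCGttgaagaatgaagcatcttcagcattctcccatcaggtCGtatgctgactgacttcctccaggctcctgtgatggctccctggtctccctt

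The Sema5b window was rich in CG, with 20 such dinucleotides and 68.7% G and C. The Plxnb3 window held 2, with 52.0% G and C. The median over all 33469 windows was 7, with 51.7% G and C, and over the 23 windows of these genes it was 16, with 61.0% G and C. On both strands, neither printed window held AACAAT (the SOX core), CAGCTG (an E-box), TATAAA or CCAAT. Over all windows these were found in 11.7%, 15.1%, 14.2% and 37.5%. Of the 23 windows, 1 held AACAAT (Sema3c), 7 held CAGCTG, none held TATAAA and 6 held CCAAT. No overlap between these motifs bears on the counts, since each was counted on its own.

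**Figure D1:**
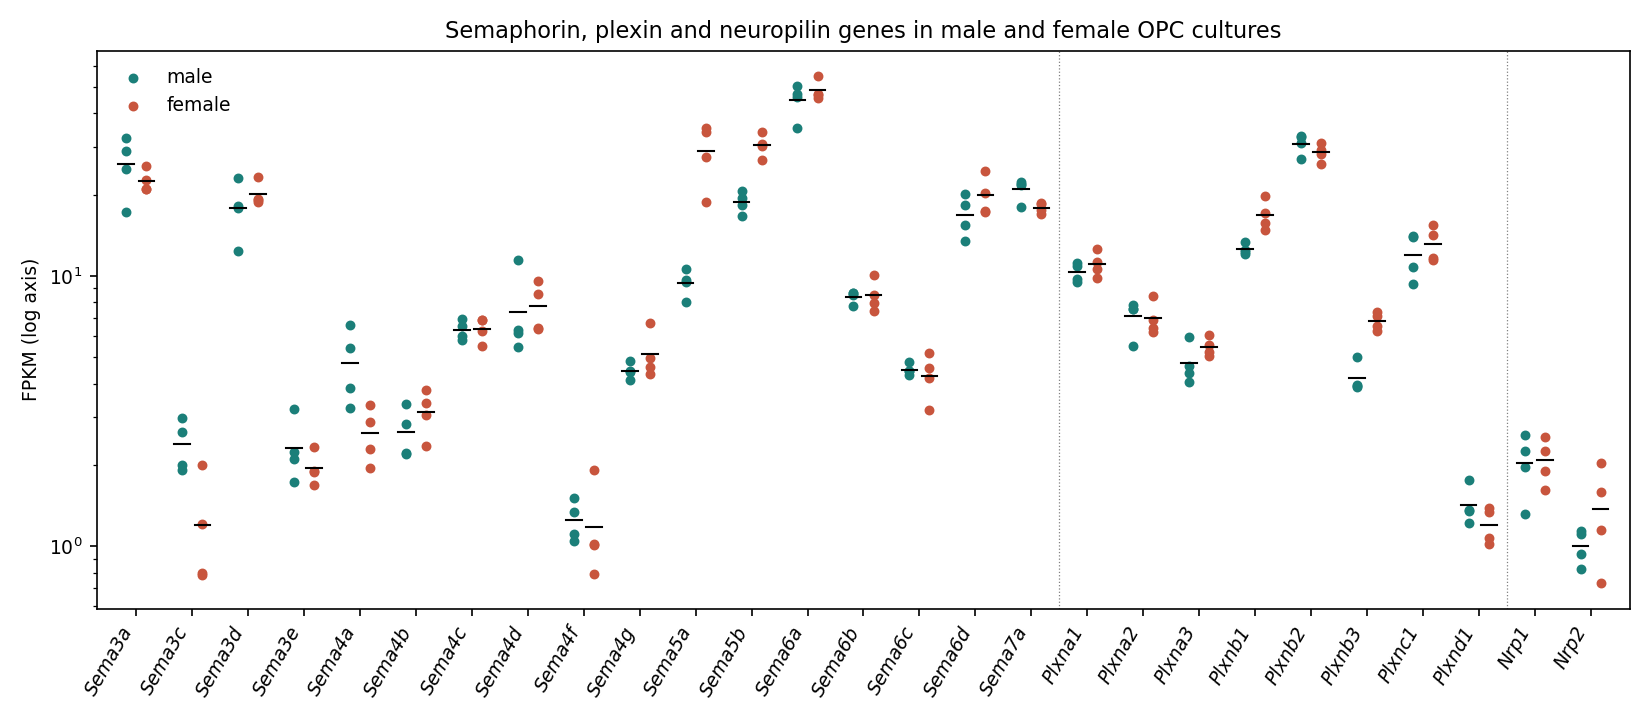
FPKM (log axis) of the 27 genes above the minimum in 4 male and 4 female libraries, semaphorins at the left, plexins in the middle and neuropilins at the right, with a line at each mean. Sema6a stood highest, at 35.2 to 54.9 FPKM over the 8 libraries, and Nrp2 lowest by its mean.

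Sema6a was the most abundant member, with 35.2, 45.9, 47.3 and 50.6 FPKM in male 1 to male 4 and 54.9, 46.7, 45.7 and 47.2 FPKM in female 1 to female 4. It encodes a transmembrane ligand of plexins A2 and A4, and its mean of 46.7 FPKM lay above 81.7% of all tested genes. Its lowest library was above the highest library of Plxnb2, the next in order. None of the other 25 pairs of neighbours in the order of mean levels was separated in this way. After Plxnb2 (29.8 FPKM over the 8 libraries) came Sema5b (24.6), Sema3a (24.2), Sema7a (19.4), Sema5a (19.2), Sema3d (19.0) and Sema6d (18.3). Plxnb1 (14.7 FPKM), Plxnc1 (12.6) and Plxna1 (10.7) followed, and 16 tested genes had means under 10 FPKM.

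The neuropilins were near the lower end of that order. Nrp1, a co-receptor of class 3 semaphorins and of VEGF, had 1.32, 2.58, 2.26 and 1.97 FPKM in male 1 to male 4 and 1.61, 2.54, 1.90 and 2.26 FPKM in female 1 to female 4. Nrp2, the co-receptor that Sema3f uses, had 0.941, 0.822, 1.14 and 1.11 FPKM in the male and 2.03, 1.15, 0.729 and 1.58 FPKM in the female libraries. The sexes overlapped for both. Together they summed to 3.03 ± 0.537 FPKM in male and 3.45 ± 0.555 FPKM in female cultures (SD, n = 4 each). The class 3 ligands summed to 49.5 ± 11.4 FPKM in male and 46.5 ± 4.38 FPKM in female cultures, mostly from Sema3a and Sema3d. The log2 ratio of Nrp1 over Nrp2 was 0.99 ± 0.49 in male and 0.68 ± 0.77 in female libraries, and it was below 0 only in female 1.

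Markers of endothelium, where Nrp1, Plxnd1 and Sema3g are also expressed, were nearly absent. Of the 8 listed ones, Pecam1 was not in the table. The other 7 summed to 0.082 to 0.271 FPKM in male and 0.0976 to 0.476 FPKM in female libraries, with Cldn5, Tek and Emcn at 0. Of 10 fibroblast and pericyte markers, Cspg4, which OPCs also express, alone passed the minimum, and Col1a2, Col3a1, Dcn and Des were at 0.

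Sema3b, Sema3f, Sema3g and Plxna4 were under the minimum. Sema3g was listed at 0 in all 8 libraries. For Sema3b, Sema3f and Plxna4, and for the tested Sema3c and Sema4f, the values times relative depth were whole multiples of a step, within 0.05, in every library, so they can be read as fragment counts up to a common factor. Read so, Sema3f rested on 6, 5, 3 and 7 fragments in male 1 to male 4 and on 1, 0, 6 and 2 in female 1 to female 4. Sema3b rested on 4, 6, 4 and 5 fragments in the male and 3, 1, 4 and 4 in the female libraries. Counting error alone is large at such numbers. With no minimum on low values none of these 3 was called (adjusted p from 0.338 to 0.897, limma).

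Sema5a, a transmembrane ligand with thrombospondin repeats, showed the largest difference of the 27 genes. It had 10.6, 9.48, 7.998 and 9.69 FPKM in male 1 to male 4, against 35.3, 27.6, 18.8 and 34.0 FPKM in female 1 to female 4. All male libraries were below all female ones, and female 3 was the lowest of the female libraries. Its mean was 9.44 ± 1.08 FPKM in male and 28.9 ± 7.53 FPKM in female cultures (SD, n = 4 each), 3.06 times as high in the female ones. The log2 difference was -1.49 ± 0.18 (95% interval -1.87 to -1.10, limma adjusted p = 0.00126), the 34th smallest p of the whole table. Across the 18 other settings it stayed called, with adjusted p up to 0.00716.

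Sema5b, the other class 5 gene, had a smaller difference. It had 20.7, 19.5, 18.3 and 16.7 FPKM in male 1 to male 4, against 34.0, 30.8, 26.9 and 30.3 FPKM in female 1 to female 4. The groups did not overlap, and female 3 was again the lowest female library. Mean levels were 18.8 ± 1.69 FPKM in male and 30.5 ± 2.93 FPKM in female cultures (log2 difference -0.67 ± 0.10, limma adjusted p = 0.00415). It stayed called in the 18 other settings, with adjusted p up to 0.0188.

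The balance between these ligands also differed. The log2 ratio of Sema5a over Sema5b, a measure chosen after its values were seen, was -0.96, -1.04, -1.20 and -0.79 in male 1 to male 4. In female 1 to female 4 it was 0.05, -0.16, -0.51 and 0.17. Sema5a was below Sema5b in every male library and above it in female 1 and female 4.

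Class 5 carried the difference in the summed semaphorin level. Together the 20 semaphorin genes reached 199.9 ± 17.0 FPKM in male and 231 ± 24.46 FPKM in female cultures (SD, n = 4 each), with overlapping libraries. Without Sema5a and Sema5b the other 18 summed to 171.7 ± 19.4 FPKM in male and 171.9 ± 15.5 FPKM in female cultures. Both genes had been called as lower in male cultures, so leaving them out was bound to narrow the difference. The class 5 share of the summed level was 17.7%, 14.6%, 12.3% and 12.5% in male 1 to male 4, and 26.3%, 26.3%, 22.2% and 27.5% in female 1 to female 4.

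**Figure D2:**
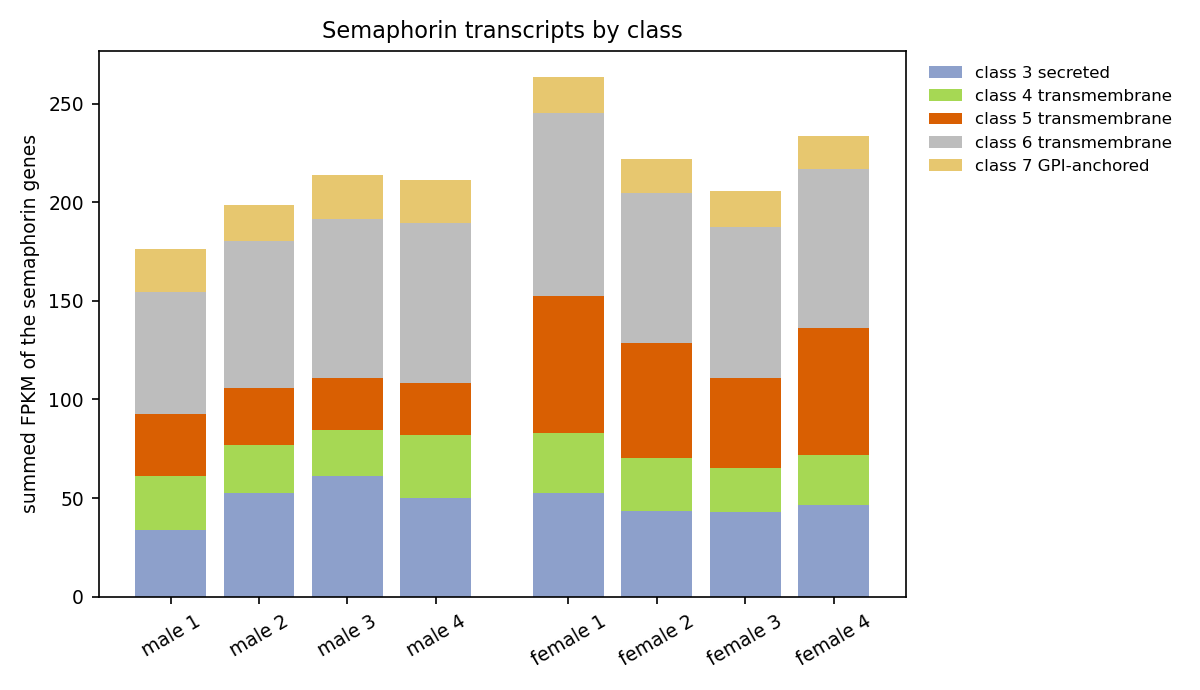
Summed FPKM of the 20 semaphorin genes in each library, stacked by class, male libraries at the left and female libraries at the right. The class 5 layer spans 26.3 to 31.3 FPKM in male and 45.7 to 69.3 FPKM in female libraries.

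Plxnb3, the plexin known as a receptor of Sema5a, was lower in male cultures too. It had 3.94, 3.91, 3.90 and 5.01 FPKM in male 1 to male 4, against 7.34, 6.56, 6.26 and 7.12 FPKM in female 1 to female 4. The groups did not overlap, and male 4 was apart from the other male libraries. The log2 difference was -0.60 ± 0.13 (4.19 ± 0.548 FPKM in male and 6.82 ± 0.498 FPKM in female cultures, limma adjusted p = 0.0218). Plxnb3 was no longer called without male 2 (adjusted p = 0.0707), male 3 (0.0727), female 1 (0.0571) or female 4 (0.0701). The same held where relative depth entered the fit (0.0728). The difference itself stayed between -0.67 and -0.56 when libraries were left out in turn.

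Plxnb3 is X-linked, as is Plxna3, by their symbols in RefSeq. Of 328 tested genes placed on X by symbol, 10 were called as higher in female cultures (3.05%) and 11 as higher in male ones, with a median difference of -0.01. Plxna3 had 4.39, 4.65, 5.96 and 4.07 FPKM in male 1 to male 4 and 6.07, 5.56, 5.05 and 5.24 FPKM in female 1 to female 4. Its groups overlapped through male 3, and it was not called (-0.18 ± 0.14, 95% interval -0.48 to 0.13, limma adjusted p = 0.521).

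Plxnb1, best known as the receptor of Sema4d, leaned the same way as Plxnb3 and missed the threshold. It had 12.1, 12.3, 12.5 and 13.4 FPKM in male 1 to male 4, against 19.7, 15.7, 14.8 and 17.0 FPKM in female 1 to female 4, and the groups did not overlap. The log2 difference was -0.39 ± 0.10 (limma adjusted p = 0.0543). Of the 8 fits with a library left out, it was called in 1, without female 3 (adjusted p = 0.0377). Of the 10 other settings it was also called in 1, where the minimum was a mean of 5 FPKM (0.0444). In the rest it was not called, with adjusted p up to 0.136 with a library left out and 0.156 with relative depth in the fit. Plxnb2, a receptor of Sema4c and the most abundant plexin, had 27.04, 31.06, 32.99 and 32.58 FPKM in male 1 to male 4 and 31.06, 26.002, 28.2 and 29.4 FPKM in female 1 to female 4. Its groups overlapped (0.10 ± 0.09, 95% interval -0.10 to 0.30, adjusted p = 0.566).

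Within each library, Plxnb3 stood lower relative to Plxnb1 in 3 of the 4 male libraries than in every female one. The log2 ratio was -1.61, -1.66, -1.68 and -1.42 in male 1 to male 4 and -1.42, -1.26, -1.24 and -1.26 in female 1 to female 4. The groups overlapped slightly, since male 4 (-1.419) lay just above female 1 (-1.424). Plxnb2 made up 36.8 ± 0.539% of the summed plexin level in male and 31.6 ± 1.85% in female cultures, and Plxnb3 5.003 ± 0.681% in male and 7.51 ± 0.268% in female ones. The 7 plexins other than Plxnb1 and Plxnb3 summed to 67.3 ± 7.08 FPKM in male and 67.3 ± 4.96 FPKM in female cultures. Plxnb1 and Plxnb3 were lower in every male library, so leaving them out was bound to narrow the difference.

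**Figure D3:**
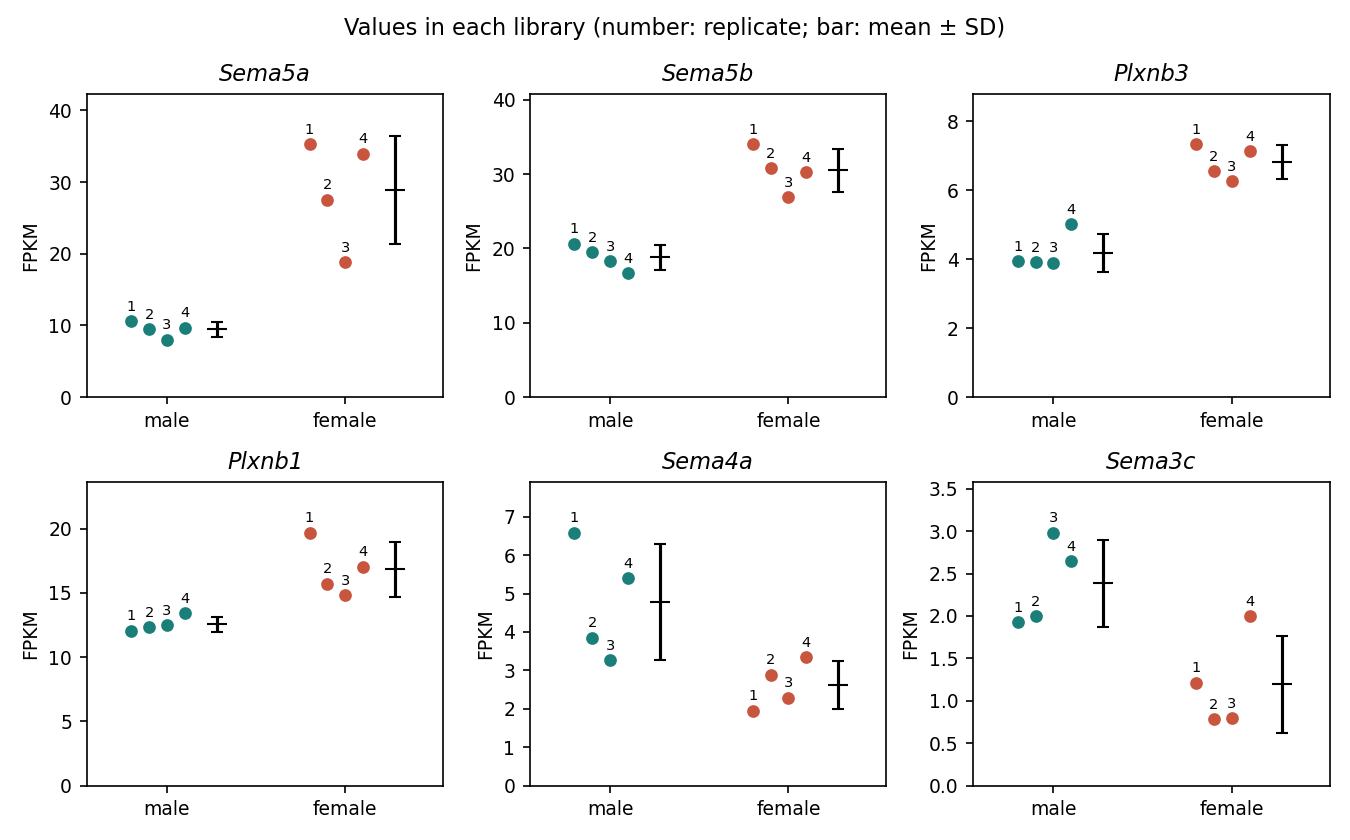
FPKM of 6 genes in each library, male at the left and female at the right, numbered by replicate, with the mean ± SD of 4 libraries beside them. For Sema5a, Sema5b, Plxnb3 and Plxnb1 every male library lies below every female one, while Sema4a and Sema3c overlap.

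Markers of other states and cells moved with the sexes beside these genes. For comparison, 3.14% of all tested genes were called as higher in male and 2.89% as higher in female cultures. Of 11 tested microglia markers 9 were called, all higher in female cultures, and the summed level of the list was 41.1 to 60.4 FPKM in male and 162 to 200.3 FPKM in female libraries. Of 11 OPC markers 5 were called as higher in female cultures, among them Gpr17 and Pdgfra, and of 10 tested genes of differentiating oligodendrocytes 3 were, Myrf, Bcas1 and Cnp. Of 12 tested neuron markers 3 were called as higher in male cultures, Gad1 (means of 19.2 FPKM in male and 3.93 FPKM in female cultures), Syt1 and Stmn2. Over all 14 listed neuron genes the sums were 348 to 384 FPKM in male and 324 to 453 FPKM in female libraries, with Slc17a7 at 0. None of 8 astrocyte markers was called by limma (4 at an unadjusted p under 0.05). The part of these cells in the differences of Sema5a, Sema5b, Plxnb3 and Plxnb1 was not tested. In bulk RNA, fewer cells of a type and less RNA per cell cannot be told apart.

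Set against the OPC genes Pdgfra, Olig2 and Sox10 in the same library, Sema5a, Sema5b and Plxnb3 stayed apart between the sexes. This measure was chosen after the values were seen. Pdgfra (limma adjusted p = 0.0103) and Sox10 (0.0327) were themselves called as lower in male cultures, and Olig2 missed the threshold (0.0512). The log2 ratio of Sema5a to the mean of these genes ran from -4.72 to -4.49 in male and from -3.87 to -3.06 in female libraries. For Sema5b it ran from -3.78 to -3.50 in male and from -3.35 to -3.13 in female libraries, and for Plxnb3 -5.92 to -5.52 in male and -5.46 to -5.32 in female libraries. For Plxnb1 the ranges overlapped, at -4.30 to -4.07 in male and -4.21 to -3.93 in female libraries. Male minus female, the mean ratios differed by -1.25 for Sema5a, -0.37 for Sema5b, -0.38 for Plxnb3 and -0.08 for Plxnb1. The differences of these genes without such a reference, at the pseudocount of 0.1, were -1.57, -0.69, -0.70 and -0.41. The same reference was subtracted from every gene, so each difference became smaller by about the same amount. How much of it was left in proportion was therefore set by its starting size.

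Of the other 15 tested semaphorin genes none was called by limma in either direction (3 had an unadjusted p under 0.05, Sema4a, Sema3c and Sema7a, all towards male cultures). Sema4a, a class 4 ligand known from immune cells, had 6.59, 3.85, 3.26 and 5.40 FPKM in male 1 to male 4, against 1.95, 2.89, 2.29 and 3.34 FPKM in female 1 to female 4. The groups overlapped only through male 3 and female 4 (0.65 ± 0.21, 95% interval 0.20 to 1.11, limma adjusted p = 0.0955). Sema3c, a secreted ligand of neuropilins, had 1.92, 2.00, 2.98 and 2.65 FPKM in male 1 to male 4, against 1.21, 0.781, 0.794 and 2.00 FPKM in female 1 to female 4. Female 4 lay among the male libraries (0.65 ± 0.22, limma adjusted p = 0.115). Read as fragments, these Sema3c values stood for 47, 27, 56 and 36 in the male and 9, 7, 19 and 26 in the female libraries.

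Sema7a, the lipid-anchored semaphorin that binds plexin C1 and integrin β1, had 21.8, 18.0, 22.2 and 21.7 FPKM in male 1 to male 4, against 18.6, 17.6, 18.4 and 17.0 FPKM in female 1 to female 4. Male 2 alone lay within the female range (0.21 ± 0.09, limma adjusted p = 0.217). Its receptor gene Plxnc1 had 9.31, 13.89, 14.01 and 10.78 FPKM in male 1 to male 4 and 14.2, 15.4, 11.7 and 11.4 FPKM in female 1 to female 4. The sexes overlapped (-0.13 ± 0.15, 95% interval -0.46 to 0.19, adjusted p = 0.665).

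Sema3a, Sema3d and Sema3e, secreted ligands, had sex differences in mean FPKM smaller than the SD of the male libraries. Sema3a had 17.2, 29.0, 32.4 and 24.9 FPKM in male 1 to male 4 and 25.5, 20.9, 21.0 and 22.7 FPKM in female 1 to female 4, so the lowest and the highest library were both male. The difference was 0.16 ± 0.16 (95% interval -0.20 to 0.52, limma adjusted p = 0.635). Sema3d had 12.4, 18.2, 23.0 and 17.8 FPKM in the male and 23.2, 19.2, 18.8 and 19.1 FPKM in the female libraries, with male 1 lowest here too. Sema3e, the ligand of plexin D1, had 1.73 to 3.21 FPKM in male and 1.69 to 2.33 FPKM in female libraries. Its receptor gene Plxnd1 had 1.22 to 1.77 FPKM in male and 1.02 to 1.39 FPKM in female libraries, and neither was called.

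Among class 4 ligands, Sema4d had 5.44, 6.30, 6.16 and 11.5 FPKM in male 1 to male 4 and 9.59, 8.56, 6.41 and 6.36 FPKM in female 1 to female 4. The high value of male 4 left the sexes overlapping (-0.10 ± 0.21, 95% interval -0.56 to 0.37, limma adjusted p = 0.843). Without male 4 its difference was -0.31. Sema4b averaged 2.65 FPKM in male and 3.15 FPKM in female cultures, Sema4c 6.31 FPKM in male and 6.39 FPKM in female, and Sema4g 4.46 FPKM in male and 5.15 FPKM in female. Sema4f stood at 1.25 FPKM in male and 1.18 FPKM in female cultures. Their adjusted p ran from 0.588 to 0.966.

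None of the class 6 ligands was called. Sema6a averaged 44.7 ± 6.67 FPKM in male and 48.6 ± 4.22 FPKM in female cultures (-0.13 ± 0.11, 95% interval -0.37 to 0.12). Sema6d, a ligand of plexin A1, had 13.4, 15.5, 20.1 and 18.3 FPKM in male 1 to male 4 and 24.5, 17.3, 17.3 and 20.3 FPKM in female 1 to female 4 (-0.23 ± 0.14, 95% interval -0.55 to 0.09, limma adjusted p = 0.407). The sexes overlapped for both. Sema6b averaged 8.40 FPKM in male and 8.50 FPKM in female cultures (95% interval of the difference -0.27 to 0.25), and Sema6c 4.51 FPKM in male and 4.28 FPKM in female (-0.25 to 0.40). The log2 ratio of Sema6a over Sema6d was 1.41 ± 0.14 in male and 1.30 ± 0.13 in female libraries.

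Of the A-type plexins, which signal for class 3 and class 6 ligands, Plxna1 had 9.49 to 11.2 FPKM in male and 9.84 to 12.6 FPKM in female libraries, and Plxna2 5.51 to 7.79 FPKM in male and 6.20 to 8.45 FPKM in female ones. Their differences were -0.09 (95% interval -0.33 to 0.15) and 0.02 (-0.30 to 0.33). Neither interval reaches a 1.5-fold change on this scale. For Nrp1 (-0.45 to 0.39) and Nrp2 (-0.71 to 0.27) the intervals were wider.

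**Figure D4:**
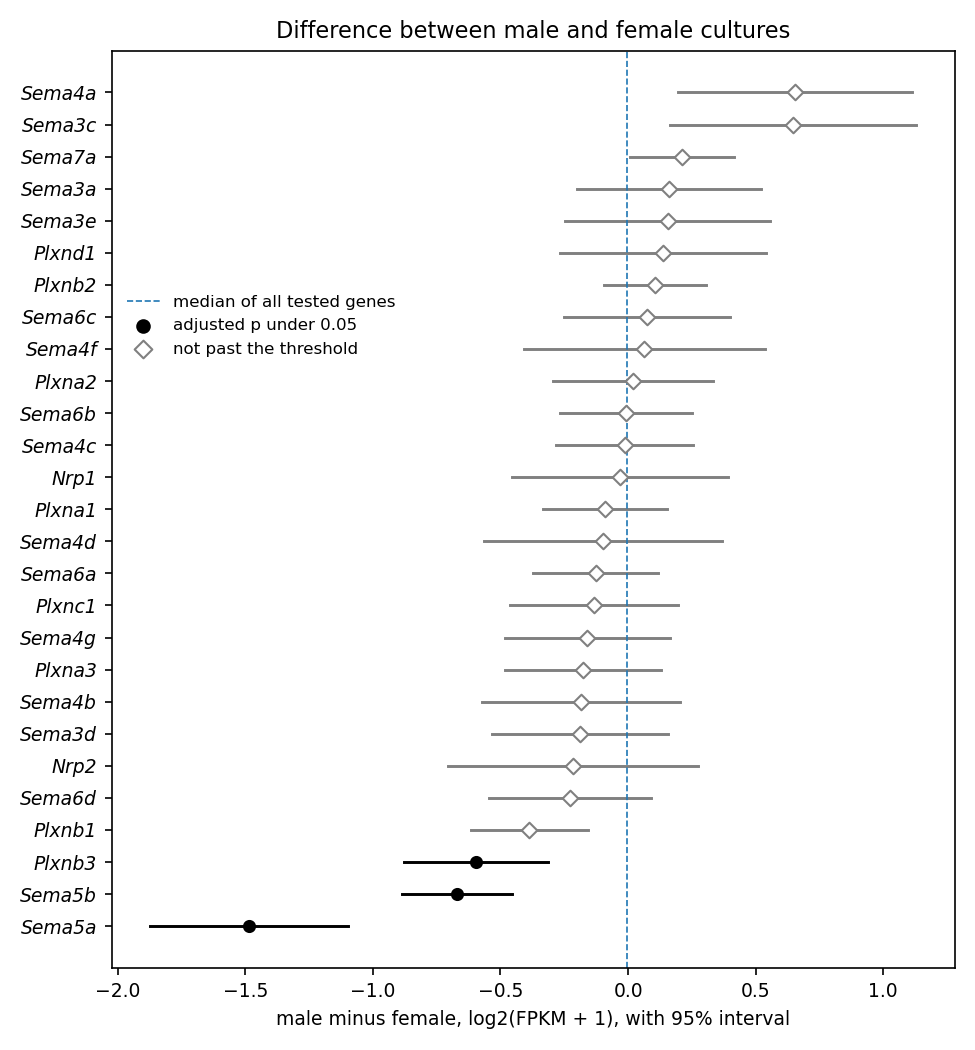
Difference, male minus female, of the 27 tested genes on the log2(FPKM + 1) scale with 95% intervals, filled where the adjusted p was under 0.05. Sema5a at -1.49, Sema5b at -0.67 and Plxnb3 at -0.60 are the filled points.

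The lowest and highest values of many of these genes fell in the same libraries. Male 1, which had the greatest relative depth, was the lowest of the 8 libraries for 10 of the 27 genes (37.0%). It was the lowest for 18.0% of all tested genes. Female 1, which had the least relative depth, was the highest for 14 of the 27 (51.9%), against 20.8% of all tested genes. Sema5a, Sema5b, Plxnb3 and Plxnb1 were among those 14. Whether a library as a whole shifted these genes was not tested. With female 1 left out, Sema5a differed by -1.38 and Sema5b by -0.62, and without male 1 by -1.54 and -0.71. Female 3, the lowest female library for both genes, had the next greatest relative depth after male 1 (0.981). With relative depth in the fit, Sema5a differed by -1.32, Sema5b by -0.62, Plxnb3 by -0.54 and Plxnb1 by -0.31.

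Most tested genes that act downstream of plexins were not called, and the called ones differed in both directions. Of 28 tested cytoplasmic partners 2 were called as higher in male and 3 as higher in female cultures, with a median difference of -0.04. Over all tested genes 3.14% were called as higher in male and 2.89% as higher in female cultures. Rnd3, a constitutively active small GTPase, had 10.3, 10.9, 14.2 and 13.9 FPKM in male 1 to male 4, against 4.98, 5.36, 6.71 and 6.67 FPKM in female 1 to female 4 (0.94 ± 0.14, limma adjusted p = 0.00467). Rap1b, a small GTPase of the kind that the plexin GAP domain turns off, had 155 ± 16.4 FPKM in male and 119 ± 5.31 FPKM in female cultures (0.38 ± 0.08, adjusted p = 0.0212). The groups did not overlap for either. Rnd3 was called in all 18 other settings, and Rap1b was not without male 2, male 3, male 4, female 1 or female 4 (adjusted p up to 0.0735).

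On the female side was Arhgap35, a GTPase-activating protein gene, with 68.6, 74.5, 74.3 and 79.7 FPKM in male 1 to male 4, against 137.8, 109.4, 95.9 and 131.6 FPKM in female 1 to female 4 (-0.66 ± 0.11, limma adjusted p = 0.00661). Rnd2 (-0.53 ± 0.13, adjusted p = 0.0338) and Rac1, a GTPase that drives protrusion (-0.21 ± 0.05, adjusted p = 0.0421), were the others. Arhgap35 was called in all 18 other settings. Rac1 was not without male 2, male 3, male 4, female 2, female 3 or female 4 (adjusted p up to 0.13), nor with each library centred on its median (0.124). Rnd2 kept its call when male 1 was left out and lost it with each of the other 7 left out (adjusted p up to 0.105). It was not called with no minimum on low values (0.0651) or with median centring (0.0570) either. The collapsin response mediator genes Crmp1 and Dpysl2, first known from Sema3a signalling, averaged 110.6 and 296.9 FPKM in male cultures, against 106.1 and 290.4 FPKM in female ones, and were not called. Dpysl3 of the same family averaged 118.9 FPKM in male and 149.8 FPKM in female cultures, with overlapping groups (-0.33 ± 0.10, limma adjusted p = 0.0707). Dpysl4 averaged 59.4 FPKM in male and 60.2 FPKM in female cultures, and neither was called. Of 18 surface partners 8 were tested and none was called by limma (2 at an unadjusted p under 0.05). Those were Trem2 and Tyrobp, which microglia express and which also stand among the microglia markers, both lower in male cultures.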

How the data were processed

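Levels in 4 male and 4 female cultures were taken from the deposited table of FPKM, the unit named in the file headers. Per the submitters' processing notes the authors used Trimmomatic and FastQC. No source used here gives their aligner, FPKM program, genome build, annotation or use of strand. Because these are not counts, log2(FPKM + 1) values of the 11263 genes averaging at least 1 FPKM were tested with limma 3.58.1 in R 4.3.3 (trend, robust moderation, Benjamini-Hochberg over all tested genes, threshold 0.05). Relative depth came from the most frequent ratio between low values of a library and of male 1. In a test on simulated data (5 runs, 200 changed genes among 11263), the fit recovered 31.2% of changes of 0.5 on the log2 scale, 80.2% at 1 and 94.8% at 2. Chromosomes and promoters come from RefSeq (GRCr8), matched by symbol for all 31 genes and for 23. No 2 libraries held identical values.

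The members, lists, ratios and motifs were chosen with earlier results of these data known. Every gene above the minimum is named, and of the partners the called ones; other partners and markers were named after their values were seen. Alternatives were pseudocounts of 0.1 and 5, no minimum, a minimum of 5 FPKM, quantile normalization, median centring, the replicate number as a block, relative depth as a covariate, no robust moderation, each library left out, and male 1 and female 3 left out together.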

Additional observations from a re-analysis of the deposited data

Results flagged for a closer look

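Within the 4 libraries of a sex, 6 of 54 groups of values held 1 library far from the others by Dixon's criterion, which chance meets in about 1 of 20 groups. Male 4 was high for Sema4d, at 11.5 FPKM, and for Plxnb3, at 5.01 FPKM. Male 1 was low for Plxna2, at 5.51 FPKM, and male 2 low for Sema7a, at 18.0 FPKM. Female 1 was high for Sema3d, at 23.2 FPKM, and for Sema6a, at 54.9 FPKM.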

How the results depend on the processing

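Sema5a and Sema5b kept their direction and their call in all 18 alternatives, and Plxnb3 kept its direction in all. The called genes of the 27 numbered 2 to 4 over the alternatives. The same replicate number in both sexes did not pair libraries (correlations of deviations -0.09, 0.08, -0.06 and 0.04 for numbers 1 to 4 over all tested genes), and with the replicate block 397 genes of the whole table were called, against 680, and Plxnb3 (adjusted p = 0.0638), Rac1 (0.15) and Rnd2 (0.0830) were not. Male 1 and female 3 deviated together most (0.24, where the other 15 pairs ran from -0.12 to 0.08), and both were left out in 1 alternative. With relative depth in the fit 367 were called, and with libraries left out in turn 296 to 808. Called partner genes numbered 5, but 3 with median centring, 8 without male 1 and female 3 together, and 2 to 7 with libraries left out in turn. The cause of these shifts was not tested.

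Differences near 0 changed sign, none of them called. With quantile normalization Sema4c was 0.011 and Sema6b 0.015, and with median centring Sema4c was 0.0096 and Sema6b 0.015. With relative depth in the fit Nrp1 was 0.027, Sema4c 0.022, Sema4d 0.10, Sema6b 0.016 and Sema6c -0.051, and Nrp1 was 0.065 without male 1 and female 3 together. With libraries left out in turn, Nrp1 ran from -0.12 to 0.091, Sema4d from -0.31 to 0.0086, Plxna2 from -0.027 to 0.12, Sema4c from -0.073 to 0.019, Sema6b from -0.063 to 0.067, Sema6c from -0.032 to 0.15 and Sema4f from -0.023 to 0.21. Depth limits genes near 1 FPKM most, where a library can hold fewer than 10 fragments.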
